A study of Mus musculus with 4 samples.

Results

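Oxidative phosphorylation genes were examined in mouse fibroblasts with and without phorone. The members were the 85 gene names on the array that start as subunit names of respiratory complexes I to V do (Nduf followed by a, b, c, s or v and a number, Sdha to Sdhd, Uqcr, Cox4 to Cox8, and Atp5). They are 85 of the 29353 gene names on the array and were carried by 112 of its 40628 gene probes. By name, 37 belonged to complex I, 4 to complex II, 7 to complex III, 19 to complex IV and 18 to complex V. Of these 85, 82 gave a signal that allowed a test and 3 did not. The naming rule also takes in 5 genes that are not structural subunits under current names or are of uncertain status: Cox4nb (now Emc8), Cox7a2l, Atp5s (now Dmac2l), Atp5sl (now Dmac2) and Atp5l2, a predicted gene. Ndufa4 and its paralogue Ndufa4l2 are counted with complex I by name, although the Ndufa4 protein is now assigned to complex IV.

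The samples were 4 preparations of total RNA, each on its own one-colour Agilent array. Every sample came from C3H10T1/2, a mouse embryo fibroblast line, after chemical transformation: 3-methylcholanthrene at 2.5 µg/ml for 2 days, 4 days in normal medium, the phorbol ester TPA at 100 ng/ml for 2 weeks, and 4 weeks in normal medium. The 2 control samples were these transformed cells, and the 2 phorone samples were transformed cells exposed to 2 mM phorone, an unsaturated ketone that cells conjugate to glutathione. How long the exposure lasted and in which vehicle phorone was given are not stated in the labels. No untransformed cells were among the samples, so the 2 groups share the whole transformation treatment. Nothing in the labels says that replicate samples were separate cultures, so p-values here describe only how these 4 samples spread, and that spread may be technical.

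Oxidative phosphorylation takes place in the inner mitochondrial membrane. Complex I takes electrons from NADH and complex II from succinate, complex III passes them by way of ubiquinone to cytochrome c, and complex IV hands them to oxygen; complexes I, III and IV pump protons, and complex V, the ATP synthase, uses the returning protons to make ATP. Most subunits are encoded in the nucleus, which is the set examined here; the subunits encoded by mitochondrial DNA were not analysed here. Several complex IV subunits exist as a broadly expressed isoform and an isoform typical of heart and skeletal muscle, and nuclear factors such as NRF1, GABPA, YY1 and ERRα, with the PGC-1 coactivators, are known to act at promoters of these genes.

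The promoters of 6 members that changed are shown first, because their values open the results and because a motif search over all members with a promoter entry is reported further on. Each is the 250 bases upstream of the annotated start in RefSeq's mouse assembly GRCm38.p6, read 5′ to 3′ on the gene's strand. Ndufa9, Ndufa5 and Ndufv2 were higher with phorone, and Atp5g2, Ndufv3 and Cox7a1 were lower. Capitals mark an antioxidant response element core (TGACNNNGC or its reverse complement) in Ndufa9 and Ndufv2 and an NRF1 motif (GCGCA and GCGC with any base between them) in Ndufa5 and Atp5g2; Ndufv3 and Cox7a1 hold none of the motifs searched. Of several starts annotated for Ndufa5, the most upstream is shown.
Ndufa9, chr6:126849145-126849394, minus strand: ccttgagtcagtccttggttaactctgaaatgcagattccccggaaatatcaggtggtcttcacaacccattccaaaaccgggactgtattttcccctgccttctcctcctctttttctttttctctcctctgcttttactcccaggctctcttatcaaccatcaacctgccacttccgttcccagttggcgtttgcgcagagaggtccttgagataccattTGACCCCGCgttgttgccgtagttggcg
Ndufa5, chr6:24527691-24527940, minus strand: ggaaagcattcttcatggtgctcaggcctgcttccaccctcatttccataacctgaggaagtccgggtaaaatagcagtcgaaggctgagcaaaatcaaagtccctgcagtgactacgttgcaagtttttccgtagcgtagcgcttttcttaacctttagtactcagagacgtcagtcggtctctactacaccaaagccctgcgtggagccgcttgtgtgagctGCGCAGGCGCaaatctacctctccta
Ndufv2, chr17:66101560-66101809, minus strand: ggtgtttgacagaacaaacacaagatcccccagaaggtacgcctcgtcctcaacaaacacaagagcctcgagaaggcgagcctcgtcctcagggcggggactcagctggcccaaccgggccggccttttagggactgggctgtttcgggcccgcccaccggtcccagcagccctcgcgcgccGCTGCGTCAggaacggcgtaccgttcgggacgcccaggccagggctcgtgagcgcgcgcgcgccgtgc
Atp5g2, chr15:102671048-102671297, minus strand: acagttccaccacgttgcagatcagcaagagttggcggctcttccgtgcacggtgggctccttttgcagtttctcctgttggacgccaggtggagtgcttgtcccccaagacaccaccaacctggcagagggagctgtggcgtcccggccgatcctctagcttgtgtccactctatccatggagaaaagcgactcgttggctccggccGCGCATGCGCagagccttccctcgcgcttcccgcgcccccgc
Ndufv3, chr17:31519865-31520114, plus strand: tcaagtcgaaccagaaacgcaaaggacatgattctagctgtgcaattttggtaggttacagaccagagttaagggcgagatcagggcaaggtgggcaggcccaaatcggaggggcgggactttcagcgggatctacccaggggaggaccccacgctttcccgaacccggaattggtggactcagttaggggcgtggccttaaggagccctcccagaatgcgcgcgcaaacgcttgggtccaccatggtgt
Cox7a1, chr7:30183921-30184170, plus strand: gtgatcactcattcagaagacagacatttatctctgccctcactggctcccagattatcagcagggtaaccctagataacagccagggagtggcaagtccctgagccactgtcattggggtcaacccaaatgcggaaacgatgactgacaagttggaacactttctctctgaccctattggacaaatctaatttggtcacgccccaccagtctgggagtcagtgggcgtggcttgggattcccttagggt

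Values are log2 relative signals, that is, the log2 of the scanner's processed signal minus the 75th percentile of its array, so 0 is the signal of a probe at that percentile. They are compared between arrays for the same probe. No gene's level is set against another's, except to pick out the brightest genes. A gene was called higher or lower where limma's test across all 17034 tested genes gave a Benjamini-Hochberg adjusted p below 0.05. Of all genes tested, 45.5% were called (24.3% higher and 21.3% lower with phorone). Of the 82 members tested, 12 were called (14.6%): 5 were higher (6.1%) and 7 were lower (8.54%). Of the 7, Ndufa4l2 passed the filter through its control arrays alone. The median log2 fold change was 0.10 over the members and 0.08 over all genes, with 51 members above 0 and 31 below. Of the 1704 brightest genes tested, 22.7% were called, and of the 38 members among them 10.5%. No test of the members against other genes was made.

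Among the complexes, complex I had 4 members called higher and 4 called lower of 37, with a median log2 fold change of 0.11. Complex III had 1 of 7 called higher and a median of 0.38. Complex IV had 2 of 16 called lower and a median of 0.04, complex V had 1 of 18 called lower and a median of 0.09, and the 4 members of complex II had no call and a median of 0.13. In the directions in which limma called no member, an unadjusted p under 0.05 was reached by 1 member of complex II, 1 of complex IV and 2 of complex V on the higher side, and by 0 members of complexes II and III on the lower side. Fewer members were called without phorone 1, and likewise without phorone 2, and the calls over all genes fell as well. The median SE over all genes was 0.147 with all 4 arrays and 0.225 in each of these reduced sets. The members called in either reduced set were Ndufa9, Ndufv3, Ndufa4l2, Cox7a1 and Cox6a2.

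**Figure D1:**
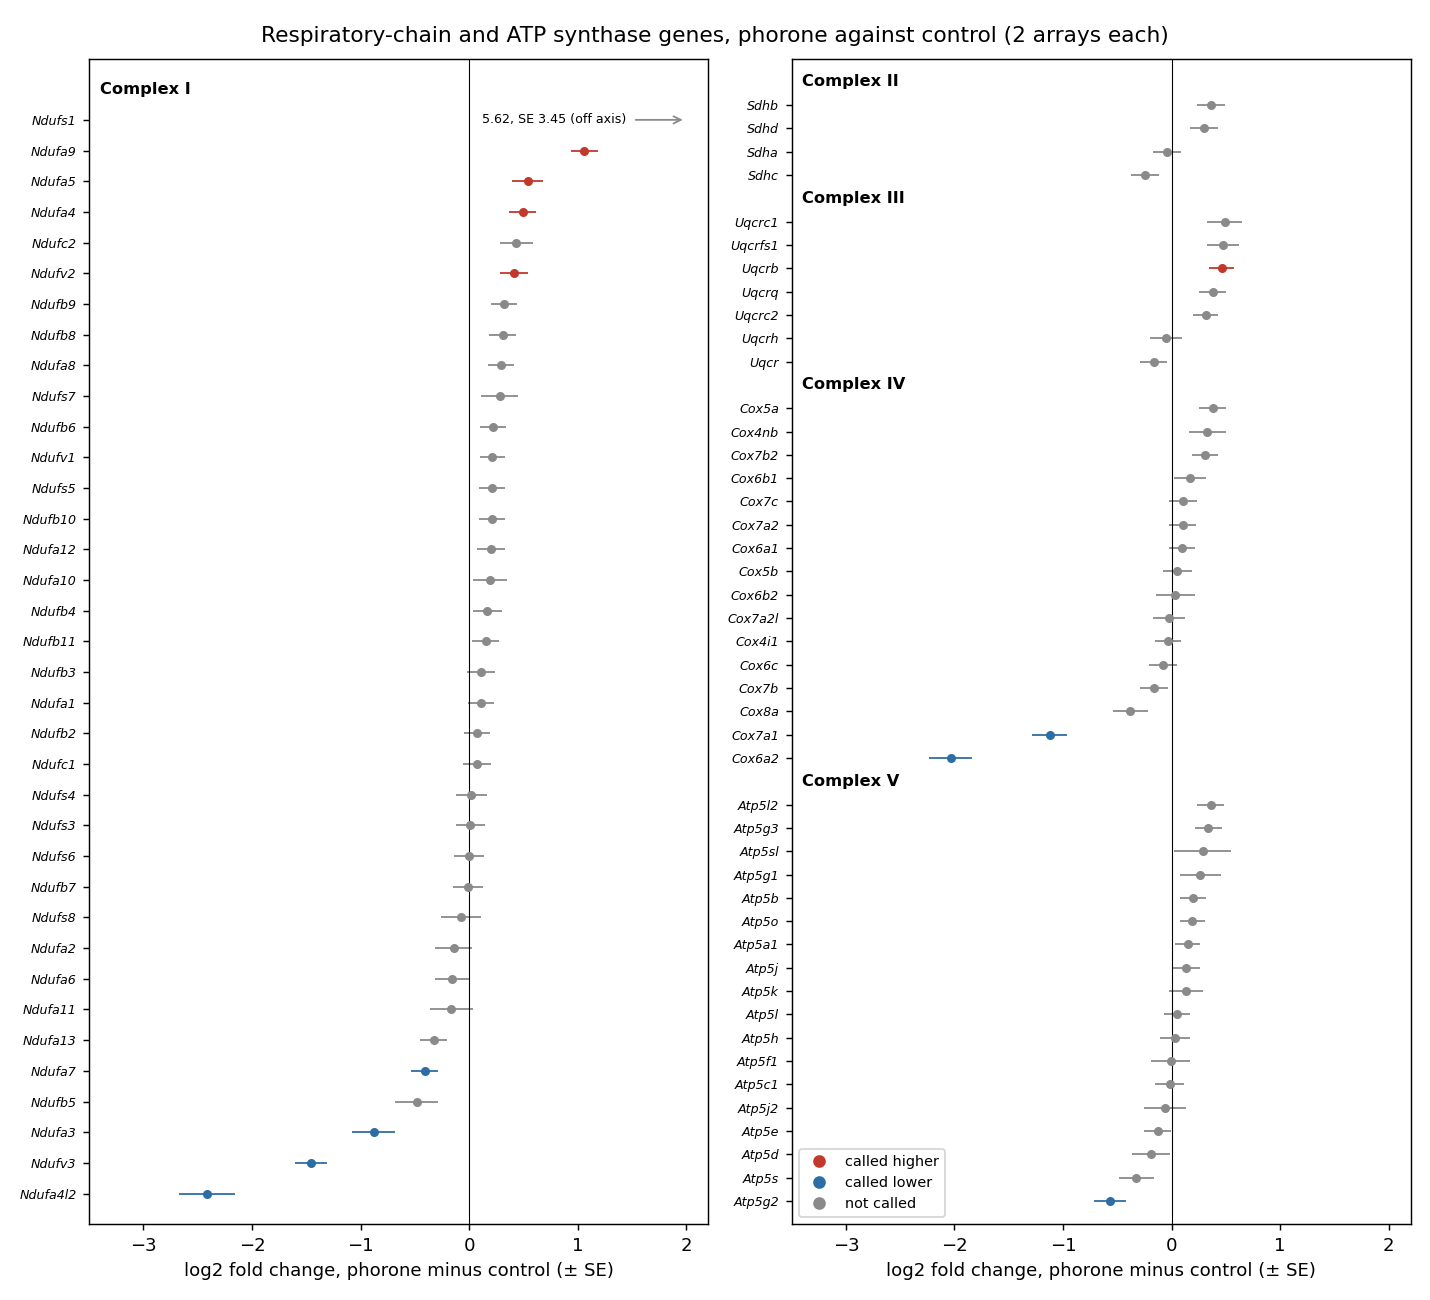
Log2 fold change (phorone minus control) of 81 of the 82 tested members, by complex, as points with bars of 1 SE from 2 arrays per group; red points were called higher, blue lower and grey not called. Most points lie within 0.5 of 0; Ndufa4l2 at -2.42 and Cox6a2 at -2.03 are the lowest, and Ndufs1, at 5.62 with an SE of 3.45, lies off the axis.

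Complex I held 8 of the 12 called members. Ndufa9, an accessory subunit at the junction of the peripheral and membrane arms, rose the most of the 5 called higher. Its log2 relative signal was 4.08 and 3.99 in the controls and 5.08 and 5.11 with phorone, a log2 fold change of 1.06 (SE 0.12, adjusted p = 0.00299). Both phorone arrays lay above both controls, and the call held in 14 of 14 alternative settings. Ndufa5, an accessory subunit of the peripheral arm, measured 5.28 and 5.49 in the controls and 6.00 and 5.85 with phorone (log2 fold change 0.54, SE 0.14, adjusted p = 0.0313). For Ndufa4 the values were 5.81 and 5.67 in the controls and 6.22 and 6.24 with phorone (0.49, SE 0.12, adjusted p = 0.0287). Ndufv2, which carries an iron-sulphur cluster of the NADH-oxidising module, went from 3.04 and 3.02 to 3.37 and 3.51 (0.41, SE 0.12, adjusted p = 0.0473). None of these 3 pairs of groups overlapped, but the calls were near the threshold: Ndufa5 kept its call in 8 of 14 alternatives, Ndufa4 in 7 and Ndufv2 in 4.

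On the lower side of complex I, Ndufa4l2 and Ndufv3 moved most. Ndufa4l2, a paralogue of Ndufa4 known for its induction in hypoxia, was dim in the controls, at -3.59 and -3.44, and not well above background on either phorone array, where it read -6.29 and -5.58. The fold is set against the higher of that reading and the lowest signal counted as well above background on the array (-6.48 and -6.56). The readings were the higher on both arrays, so the fold obtained, 5.35-fold lower with phorone, is the fitted fold itself (log2 fold change -2.42, SE 0.26, adjusted p = 0.00254). It rests on readings within the background, where 3728 and 2747 other gene probes read higher without being well above it. The fold is therefore no lower bound on the change. With normexp background correction the log2 fold change was -0.52. Ndufa4l2 passed the filter through its control arrays alone, so a difference was built into its selection; with signal required on all 4 arrays it was not tested, and 6 members were called lower. Ndufv3, an accessory subunit of the NADH-oxidising flavoprotein module, measured 4.11 and 4.35 in the controls and 2.84 and 2.71 with phorone, a log2 fold change of -1.46 (SE 0.14, adjusted p = 0.00208). All 3 of its probes were called lower, at -1.46, -1.71 and -1.46. Its control and phorone values were more than 1 log2 unit apart on every pairing of arrays.

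The other calls on this side were smaller. Ndufa3, a small accessory subunit of the membrane arm, went from 3.52 and 4.02 in the controls to 2.90 and 2.88 with phorone (log2 fold change -0.88, SE 0.20, adjusted p = 0.0202). The spread of its controls was wider than that of its phorone arrays, and leaving out either phorone array ended the call. Ndufa7, an accessory subunit of the peripheral arm, went from 5.76 and 5.90 to 5.43 and 5.42 (-0.41, SE 0.12, adjusted p = 0.0484), but its log2 fold change was 0.026 when arrays were scaled to the spike-in probes. Its call was also lost where the gene's probes were averaged or each probe was fitted on its own (adjusted p = 0.0516 for the same probe).

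**Figure D2:**
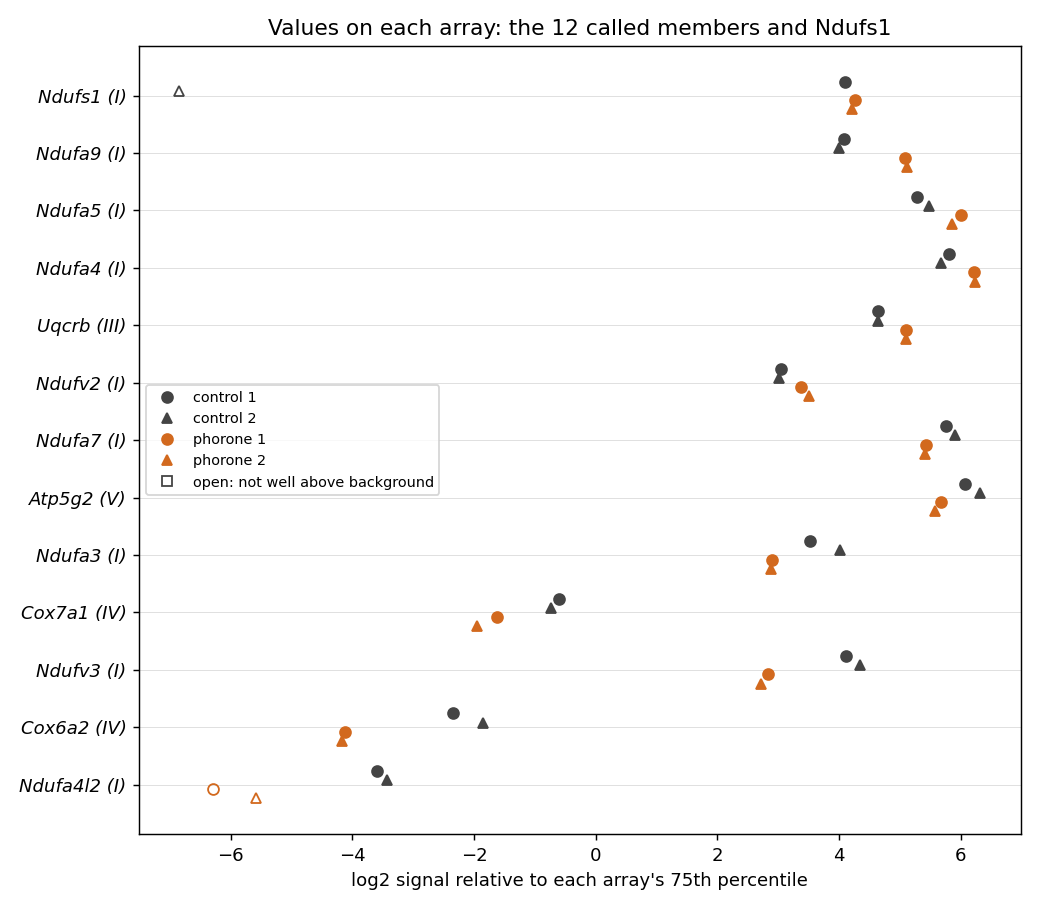
Log2 signal relative to each array's 75th percentile on the 4 arrays for the 12 called members and Ndufs1 (complex in parentheses); grey symbols are controls, orange symbols phorone arrays, and open symbols were not well above background. For every called member both phorone arrays lie on the same side of both controls, whereas Ndufs1 has a single control array far below the other 3.

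Several core subunits of complex I carry its redox centres or lie beside them, and of those described here Ndufv2 alone was called. Ndufv1, which binds NADH and the flavin, read 5.09 and 5.08 in the controls and 5.31 and 5.29 with phorone (log2 fold change 0.21, unadjusted 95% interval -0.09 to 0.51). Ndufs3, a core subunit of the peripheral arm, read 4.49 and 4.70 against 4.62 and 4.58 (0.01, interval -0.34 to 0.35). The groups overlapped for Ndufs3 and not for Ndufv1. Ndufs7, which holds the iron-sulphur cluster next to ubiquinone, read 4.65 and 5.02 in the controls and 5.17 and 5.06 with phorone (0.28, interval -0.15 to 0.72). Ndufs8, the iron-sulphur subunit beside it, read 1.30 and 1.74 against 1.50 and 1.40 (-0.07, interval -0.54 to 0.40). For these 4 uncalled subunits the intervals leave room for changes of up to 0.72 on the log2 scale.

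Ndufs1, the largest iron-sulphur subunit of complex I, could not be judged. It read 4.09 on control 1, 4.27 on phorone 1 and 4.22 on phorone 2, but -6.85 on control 2, where its only probe was not well above background. The fitted log2 fold change was 5.62 with an SE of 3.45 (adjusted p = 0.234). Without control 2 the difference was 0.15, and without control 1 it was 11.09. That single spot decided the value, and no second probe was there to compare it with. The 23 uncalled supernumerary subunits of complex I, of its Nduf a, b, c and s series, had log2 fold changes from -0.48 (Ndufb5) to 0.43 (Ndufc2).

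Complex II oxidises succinate, and its 4 subunits are also enzymes of the citric acid cycle or its membrane anchors. Sdha, the flavoprotein, read 2.02 and 2.13 in the controls and 2.10 and 1.96 with phorone (log2 fold change -0.04, interval -0.38 to 0.29). A second Sdha probe read 1.92 and 2.17 in the controls and 1.68 on both phorone arrays. Its log2 fold change was -0.37 (limma on each probe, adjusted p = 0.091), and with the probes averaged Sdha was at -0.21. Sdhb, the iron-sulphur subunit, read 3.60 and 3.66 against 4.09 and 3.90 (0.36, SE 0.13, adjusted p = 0.0765). Of the membrane anchors, Sdhc differed by -0.25 and Sdhd by 0.30. Neither direction was shared by the 4 subunits, and limma called none of them.

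Complex III had the highest median among the complexes, with 5 of 7 members above 0 and both phorone arrays above both controls for each of the 5. The groups did not overlap for 6 of the 7, and for 77.9% of all genes tested. Uqcrb, a subunit at the ubiquinone-binding site, was called: 4.63 and 4.64 in the controls and 5.10 on both phorone arrays (log2 fold change 0.46, SE 0.12, adjusted p = 0.0284). Its replicates were nearly identical, and the call held in 6 of 14 alternatives. Uqcrfs1, the Rieske iron-sulphur protein, read 4.44 and 4.16 against 4.81 and 4.73 (0.47, SE 0.15, adjusted p = 0.0515). Uqcrc1, a core protein, read 4.33 and 4.68 against 4.99 and 5.00 (0.49, SE 0.16, adjusted p = 0.0585), and Uqcrq, a small ubiquinone-site subunit, differed by 0.38 (adjusted p = 0.0555). These 3 were just outside the threshold and were called when only genes above background on all 4 arrays were tested, which made 4 calls in this complex. Uqcrc2, the second core protein, differed by 0.31, Uqcrh by -0.05 and Uqcr, the gene now named Uqcr11, by -0.16.

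In complex IV the 2 calls were the muscle-type isoforms Cox6a2 and Cox7a1, and both were lower. Cox6a2 read -2.35 and -1.86 in the controls and -4.11 and -4.17 with phorone, a log2 fold change of -2.03 (SE 0.20, adjusted p = 0.0019). Cox6a1, its broadly expressed counterpart, read 8.26 and 8.17 in the controls and 8.33 and 8.29 with phorone (0.09, interval -0.22 to 0.40). Only the muscle-type member of that pair was called. Cox7a1 read -0.60 and -0.73 in the controls and -1.63 and -1.95 with phorone (-1.12, SE 0.16, adjusted p = 0.00535). Cox7a2, its broadly expressed counterpart, read 5.26 and 5.30 against 5.45 and 5.31 (0.10, interval -0.22 to 0.42), and Cox7a2l, a related factor in supercomplex assembly, read 4.07 and 4.34 against 4.20 and 4.17 (-0.02). With normexp background correction the log2 fold changes of Cox6a2 and Cox7a1 were smaller, at -0.96 and -0.87. Whether the isoforms of a pair differ in their response was not tested.

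Of the muscle markers that could be tested, 3 were called in the same direction as these isoforms. Of 8 skeletal and heart muscle markers, Myog, Myod1, Ckm and Myh6 were not well above background on any array. Actc1, Des and Myh7 were called lower, and Tnnt2 was called higher. Myh7 was above background in the controls alone, so a difference was built into its selection. The summed relative signal of the 8 was 30.3 and 37.6 in the controls and 5.97 and 8.09 with phorone, on a linear scale where 1 is the signal at the 75th percentile. Most of that sum on each array was Actc1, at log2 relative signals of 4.88 and 5.20 in the controls and 2.45 and 2.92 with phorone. Fibroblast markers moved the same way: all 12 were tested, and 9 were called lower and 0 higher (0 also at an unadjusted p under 0.05 in limma). Fap and Lum, among the 9, were above background in the controls alone, so a difference was built into their selection. The sum of the 12 was 1570 and 1630 in the controls and 687 and 725 with phorone. The summed signal of the 6 adipocyte markers was 6.74 and 5.38 in the controls and 3.61 and 4.23 with phorone, with 1 of them (Fabp4) tested and called lower; Adipoq, Plin1, Cidec and Cidea were above background on no array and Ucp1 on 2 arrays, 1 in each group. Of other cell types, 1 of 6 epithelial, 1 of 5 endothelial and 2 of 5 leukocyte markers were tested, and the sum of each list was below 1 on every array. Krt8 was not called, Tek, above background in the controls alone, was called lower, and Cd68 was called higher while Csf1r was not called; the leukocyte sum was 0.237 and 0.286 in the controls and 0.506 and 0.696 with phorone. For cartilage 3 of 4 markers and for bone 2 of 4 were tested, and all of these were called lower. The bone markers tested, Bglap and Alpl, were above background in the controls alone, so a difference was built into their selection. Comp, of the cartilage markers, also passed the filter through its control arrays alone. The part of these markers in the result for Cox6a2 and Cox7a1 was not tested, and in such bulk RNA fewer cells of a type and less RNA per cell cannot be told apart.

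The other isoform pairs of complex IV had no call. Cox4i1, the common isoform of the largest nuclear subunit, read 6.52 and 6.60 in the controls and 6.57 and 6.49 with phorone (log2 fold change -0.03, interval -0.34 to 0.28), while Cox4i2, known from lung and hypoxia, was not well above background on any array. Cox8a read 6.91 and 7.25 against 6.70 and 6.70 (-0.38, adjusted p = 0.107). Cox8c was above background on no array and Cox8b, another muscle-type isoform, on control 1 alone (-4.36), so these and Cox4i2 make up the 3 untested members. Cox6b1 read 1.36 and 1.56 against 1.53 and 1.73 (0.17), and the testis-type Cox6b2 read -2.90 and -2.57 against -2.57 and -2.84 (0.03). The groups overlapped for both Cox6b genes. Cox5a, at 0.38 (adjusted p = 0.0626), was the highest of the uncalled members, and the rest lay between it and Cox8a.

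In complex V the only call was Atp5g2. Mammals have 3 genes, Atp5g1, Atp5g2 and Atp5g3, whose mature product is the same c subunit of the membrane ring. Atp5g2 read 6.06 and 6.32 in the controls and 5.67 and 5.58 with phorone (log2 fold change -0.57, SE 0.15, adjusted p = 0.0293), and its second probe was also called lower, at -0.71. Atp5g3 read 7.19 and 7.09 against 7.41 and 7.54 (0.34, SE 0.13, adjusted p = 0.0836), with no overlap of the groups. Atp5g1 read 3.97 and 4.45 against 4.51 and 4.44 (0.26, SE 0.19, adjusted p = 0.3), and its groups overlapped. The call of Atp5g2 held in 9 of 14 alternatives and was lost without control 2 and without either phorone array.

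The catalytic head of the ATP synthase was not called. Atp5b, the catalytic β subunit, read 7.58 and 7.63 in the controls and 7.76 and 7.84 with phorone (log2 fold change 0.20, interval -0.11 to 0.50). Atp5a1, the α subunit, read 6.21 and 6.25 against 6.40 and 6.36 (0.15, interval -0.15 to 0.45). A second Atp5a1 probe went the other way, at -0.48 (adjusted p = 0.0575), so the sign for Atp5a1 differed between its probes. The remaining uncalled members of complex V lay between -0.32 (Atp5s) and 0.36 (Atp5l2). Of the 23 members with more than 1 usable probe, none had probes called in opposite directions; for 20 no probe was called, for Ndufv3 and Atp5g2 every probe was called lower, and for Cox4nb the brightest probe was not called (0.33) while a dimmer probe was called lower (-1.23).

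Most members differed little between the groups. The absolute log2 fold change was under 0.5 for 73 of 82 members (89.0%) and for 53.3% of all genes tested, and its median was 0.20 and 0.46. It was at least 1 for 6 members (7.32%), namely Ndufs1, Ndufa9, Ndufv3, Ndufa4l2, Cox7a1 and Cox6a2, and for 21.0% of all genes. Bright genes also differed less: of the 1704 brightest genes tested, 81.3% were under 0.5, with a median absolute change of 0.26. For the 38 members among these 1704 the values were 94.7% and 0.18. How much of the gap between the members and all genes goes with brightness was not tested. The unadjusted 95% interval lay within 1 log2 unit of 0 for 69 of the 70 uncalled members, Ndufs1 being the exception. Both phorone arrays lay on one side of both controls for 52 of 82 members (63.4%), against 77.9% of all genes; phorone was the higher group in 37 of the 52 and the lower in 15. With 2 arrays against 2, the smallest two-sided p of an exact permutation test is 0.333, so that test could call no member.

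**Figure D3:**
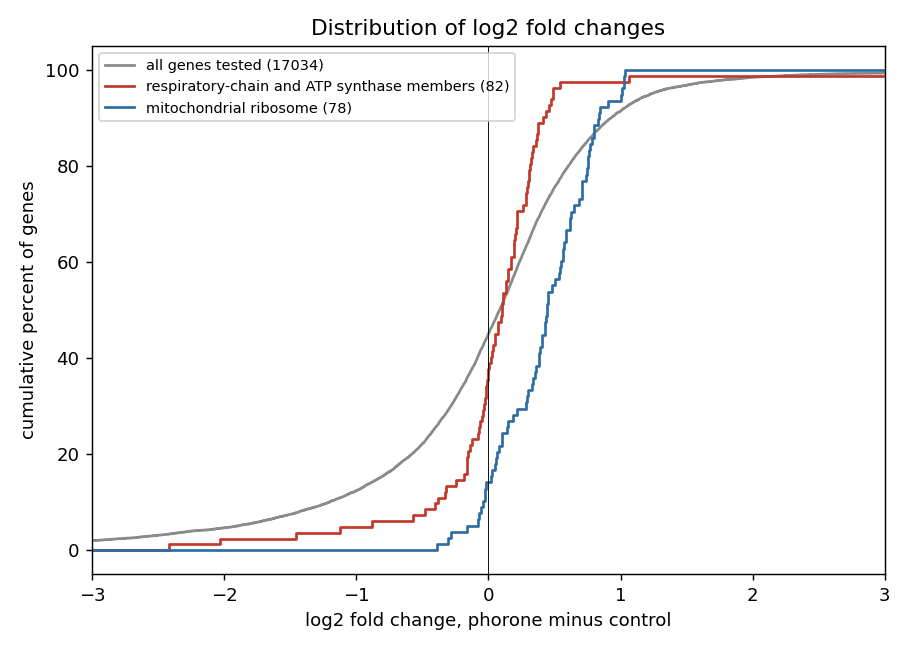
Cumulative percent of genes against log2 fold change (phorone minus control) for all 17034 genes tested (grey), the 82 members (red) and 78 mitochondrial ribosome genes (blue). The red curve is steeper than the grey one around 0, and the blue curve lies to the right of both over most of the range, with a median of 0.44.

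Some subunits of the chain are listed on the array under names outside the rule. Ndufab1, Cyc1, Uqcr10, Atp5md and Atp5mpl differed by -0.08 to 0.35, with a median of 0.09; limma called 0 of the 5, and 1 had an unadjusted p under 0.05.

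Genes that serve the chain without being part of it were taken as 12 lists. Over these mitochondrial and glycolytic genes, 223 genes outside the members were tested. Of these, 101 (45.3%) were called higher and 16 (7.17%) lower, with a median of 0.40. Over all genes tested, beside which each list below is to be read, the shares were 24.3% and 21.3% and the median 0.08. Leaving out phorone 1 or phorone 2 lowered both counts. With any 1 array left out, fewer of all genes were called too, which bears on the reduced counts of each list below. Scaling to spike-in probes gave 56 higher and 3 lower, and testing without a filter on dim probes 45 and 8. Whether these lists differ from the members was not tested.

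Assembly factors help build the complexes and are not part of the finished enzyme. Of 16 complex I assembly factors, 9 were called higher and 1 lower, with a median of 0.67, and without phorone 2 the higher calls were 4. Ecsit rose by 1.29 (SE 0.12), from 2.61 and 2.62 in the controls to 3.91 and 3.89 with phorone (adjusted p = 0.00166). Ndufaf6 and Ndufaf4 rose by 0.84 and 0.80. Ndufaf3 fell by 1.43 on the log2 scale (SE 0.13, adjusted p = 0.00175), from 0.87 and 1.05 to -0.42 and -0.51.

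For complex IV, 8 of 19 tested assembly factors were called higher and 3 lower. Taco1, a translational activator of the mitochondrial Cox1 message, rose by 1.21 (SE 0.13), Cox10, which makes the haem A precursor, by 0.93 (SE 0.14), and the copper chaperone Sco1 by 0.80 (SE 0.21). Surf1 fell by 0.86 on the log2 scale, Cox20 by 0.62 and Cmc1 by 0.45. Leaving out phorone 1 or phorone 2 left 3 higher calls in either case, and the lower calls were 1 without control 2, 1 without phorone 1 and 0 without phorone 2. For complex V, Atpaf2, a chaperone of the catalytic head, rose by 1.19 (SE 0.13) and Tmem70 by 0.46, 2 of the 3 genes in that list, of which 1 was called without control 2, phorone 1 or phorone 2. For complex III, Uqcc3 rose by 0.76, 1 of 5 tested, and lost its call without phorone 1; limma called 0 of 4 complex II factors, with 0 at an unadjusted p under 0.05.

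Mobile carriers and their suppliers were mixed. Cytochrome c, encoded by Cycs, read 4.67 and 4.50 in the controls and 5.77 and 5.81 with phorone, a rise of 1.20 (SE 0.13, adjusted p = 0.00258). Slc25a4, the heart and muscle type ADP/ATP carrier, fell by 0.55 on the log2 scale (SE 0.13, adjusted p = 0.0257), and Slc25a14, a mitochondrial carrier, rose by 0.80. The largest rise in this list, 1.88 on the log2 scale, was in a gene not named here. In all, 3 of 9 genes of this list were called higher and 1 lower, with a median of -0.00; the lower call was lost without phorone 1 or phorone 2. In coenzyme Q synthesis 2 of 10 were called each way: Pdss1 and Pdss2, which make the side chain, rose by 0.82 and 0.61, and Coq2, which attaches it, and Coq10a fell by 0.72 and 0.70 on the log2 scale. Without phorone 2, 0 of these 4 were called, and without phorone 1 or control 1 the higher calls were 1.

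Ribosomal proteins of the mitochondrion make the subunits encoded by mitochondrial DNA, and the import machinery brings in all others. Of 78 mitochondrial ribosome genes 43 were called higher and 0 lower (0 also at an unadjusted p under 0.05 in limma), with a median of 0.44 and the 3 largest rises in Mrpl1 (1.03), Mrpl35 (1.02) and Mrps31 (1.02). Without phorone 1 the higher calls were 12, and without phorone 2 they were 18. Of 24 import genes 13 were called higher, led by Tomm70a (1.16) and Timm9 (1.07), and Dnajc19 was lower (-0.47); without phorone 1 and phorone 2 the higher calls were 5 and 4, and Dnajc19 lost its call without phorone 1, phorone 2 or control 2. Among pyruvate dehydrogenase and citric acid cycle genes 7 of 17 were called higher, with Pdha1 at 1.06, and 2 lower, with Suclg2 at -1.05; leaving out control 2, phorone 1 or phorone 2 left 3, 3 and 2 higher. Glycolysis enzymes had 1 higher call, Pkm (0.58), and 4 lower, with Ldhb at -1.69, of 16 tested; Pkm lost its call without control 1, phorone 1 or phorone 2, and 2 lower calls were left without phorone 2.

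**Figure D4:**
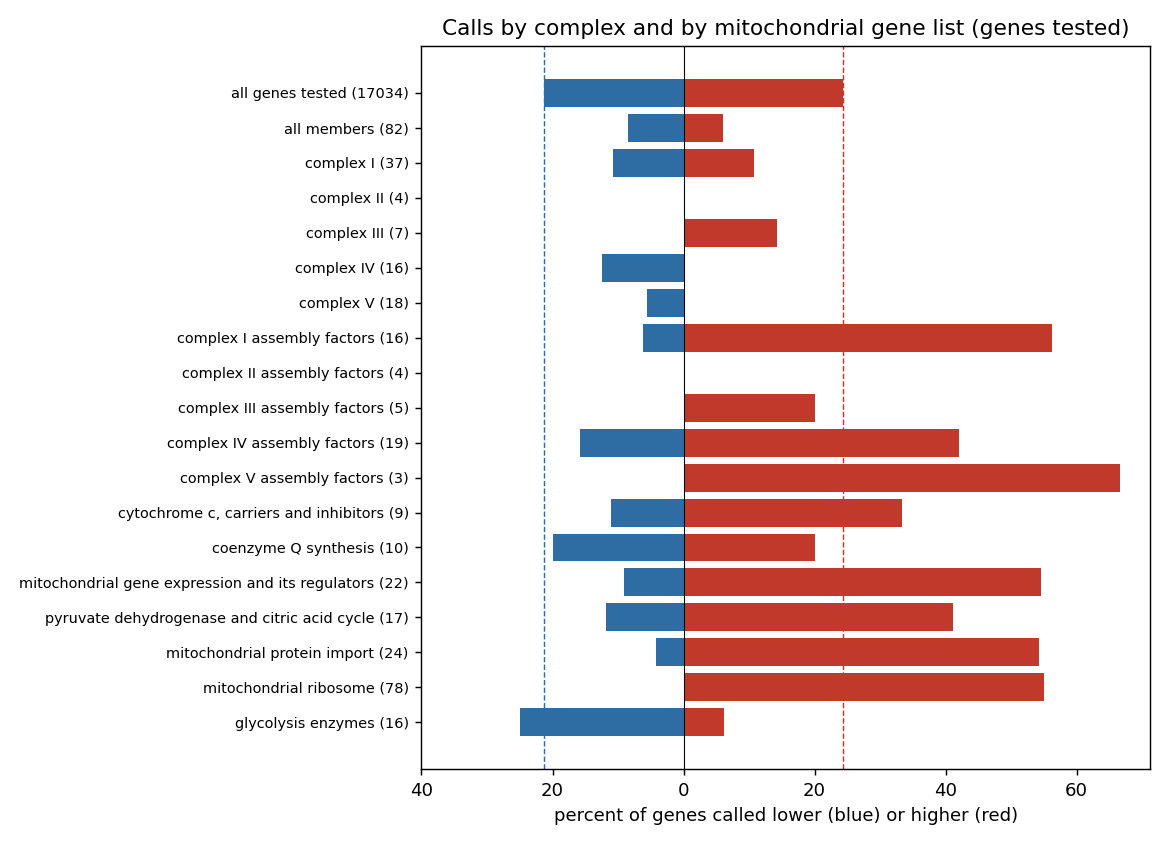
Percent of tested genes called higher (red, right) or lower (blue, left) for all genes, all members, each complex and each list, with the number tested in parentheses; dashed lines mark the percent of all genes called. The bars of the 5 complexes stay inside the dashed lines, whereas 55.1% of the mitochondrial ribosome genes were called higher.

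The regulators known to act on these genes did not move together. Ppargc1a, the coactivator PGC-1α, read -0.76 and -1.05 in the controls and -3.96 and -2.23 with phorone, a log2 fold change of -2.19 (SE 0.57, adjusted p = 0.03). Ppargc1b, its relative, fell by 1.90 on the log2 scale (SE 0.23, adjusted p = 0.00345). The phorone arrays of Ppargc1a were wide apart but both below the controls. Tfam, the packaging and transcription factor of mitochondrial DNA, rose by 0.50 (SE 0.14, adjusted p = 0.0401) and Yy1 by 0.40 (SE 0.12, adjusted p = 0.0468). Nrf1 (0.34, adjusted p = 0.0795), Esrra (-0.37, adjusted p = 0.0603) and Gabpa (-0.41, adjusted p = 0.118) were not called. Over the 22 genes tested of this list, which also holds mitochondrial transcription, replication and translation factors, 12 were called higher, with Gfm1 at 1.25, Tfb2m at 1.03 and Twnk at 0.84, and 2 lower; 4 were higher without phorone 1 and 4 without phorone 2.

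A search of the 250 bases upstream of the start on both strands found motifs of these factors in part of the members' promoters. A RefSeq promoter window was at hand for 68 of the 85 members and for 27025 genes in all. The NRF1 motif occurred in 13 of the 68 (19.1%) and in 4.23% of all genes. The ETS motif of GABPA, CCGGAAGT, occurred in 3 (4.41%) and 3.23%, and the YY1 motif in 1 (1.47%) and 0.474%. For the ERR motif TCAAGGTCA the shares were 1.47% and 0.422%, for the cyclic AMP response element TGACGTCA 5.88% and 1.77%, and for the E-box CACGTG 10.3% and 6.86%. The antioxidant response element core TGACNNNGC, the motif of NRF2, occurred in 6 members (8.82%) and in 11.5% of all genes.

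Of the 12 called members, 9 had a window. The NRF1 motif was in the windows of Ndufa5, called higher, and Atp5g2, called lower; in the sequences shown above it ends close to the start in both. The antioxidant response element core was in those of Ndufa9 and Ndufv2, called higher, and Ndufa7, called lower, whose window also held the E-box. The windows of Ndufv3, Cox7a1 and Ndufa3, called lower, and of Ndufa4, called higher, held none of the 7 motifs. A match describes letters only, and these shares carry no test.

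The sign of the small differences depended on how arrays were scaled. Scaling to 7 spike-in probes moved the median of all genes from 0.08 to 0.52 and the members' median from 0.10 to 0.54. Both scalings subtract 1 number per array, so all genes shift alike. The members' median relative to all genes, 0.02, therefore could not differ between them. Of all genes called, 53.3% were higher in the first scaling and 70.5% in the second. Under quantile normalisation the members' median was -0.0004, and those of complexes IV and V were below 0. Complex III stood above the median of all genes by 0.29 with the 75th percentile, and median or spike-in scaling cannot change this gap. The gap was 0.22 after quantile normalisation and 0.24 with normexp background correction, which could change it. Of the 12 calls, those of Ndufa9, Ndufa4l2 and Cox6a2 also held with spike-in scaling, where Ndufv3 was at -1.02 (adjusted p = 0.0773), Cox7a1 at -0.69 (adjusted p = 0.247) and Atp5g2 at -0.14.

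**Figure D5:**
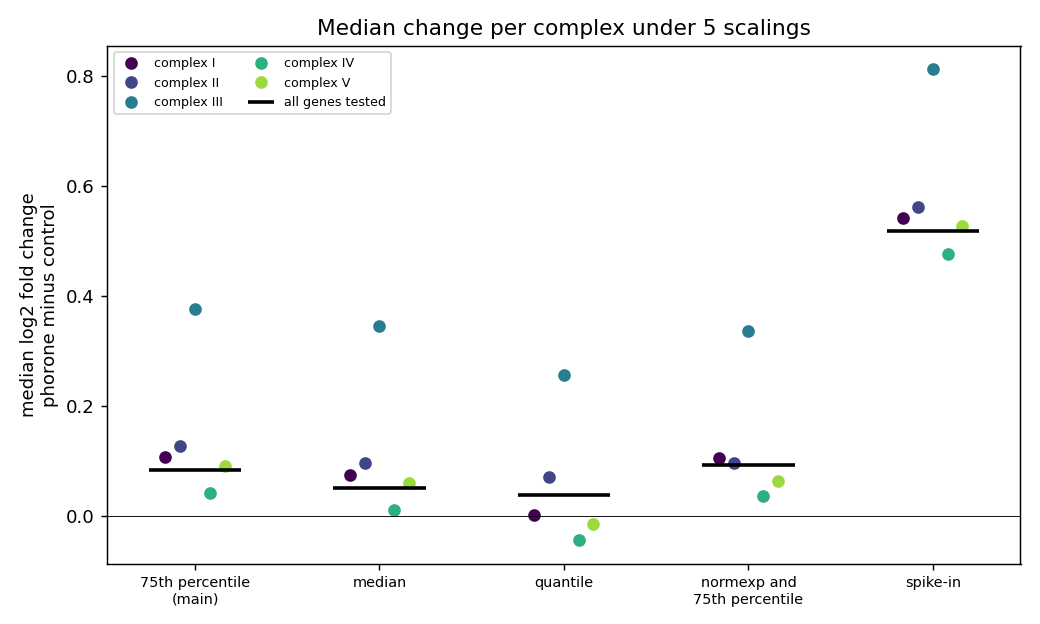
Median log2 fold change (phorone minus control) of each complex (coloured points) and of all genes tested (black bars) under 5 ways of scaling the arrays. Spike-in scaling lifts every point together with the bar, to 0.52 for all genes, and complex III lies above the bar in all 5.

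The arrays were alike in the share of spots well above background and in saturation. The phorone arrays were dimmer at the 75th percentile. The scanner software called 51.1% to 52.7% of spots well above background, no spot was saturated, the 75th percentile of the signal ranged from 701 to 747 in the controls and from 563 to 572 with phorone, and values correlated across genes at 0.988 between controls and 0.996 between phorone arrays. All 4 arrays lay on 1 slide and were read in 1 scan, with the controls in the first row and the phorone arrays in the second, so the slide's row cannot be told apart from the group. Of the members, 80 of 85 were well above background on all 4 arrays. The number of arrays limits the precision: the median SE of a member's log2 fold change was 0.13.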

How the data were processed

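Total RNA of 2 control and 2 phorone samples was labelled with Cy3 and read on 4 arrays of a custom Agilent mouse design. Per the file headers, the authors' scanner files came from Feature Extraction 10.7.3.1. The deposited intensity is the processed signal, with background subtracted and not normalised between arrays. The deposited series table, also the authors', gives a log2 value per probe and array; compared with the scanner values it differed by an SD of at most 0.0223 around 1 number per array, its column medians were -4.39, -4.35, -4.37 and -4.30, and it was used as an alternative. Build mm9 is that of the probe positions, per the file headers, so no probe positions were used; promoter windows are RefSeq's, on GRCm38.p6.

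Intensities were put on the log2 scale and centred on the 75th percentile of the 61657 spots outside the controls of the same array. Outlier spots marked by the software were then dropped, and 111 probes with them. The remaining values were averaged over the spots of a probe. Probes well above background on both arrays of either group were kept, and a gene was represented by its brightest kept probe. Members kept their design names; other gene probes were renamed through RefSeq accessions where these matched (69.3%). Groups, taken from the sample titles, were compared in R 4.3.3 with limma 3.58.1 (lmFit and eBayes, two-sided, 2 residual and 3.03 prior degrees of freedom), Benjamini-Hochberg adjusted over all 17034 genes. Intervals are unadjusted, at 95%, with 5.03 degrees of freedom. For a gene not above background in a group, the fold was set against a floor on each array. That floor was the higher of its own reading and the lowest signal well above background there. Where its own reading was the higher, the fold is no lower bound. On simulated data of 17034 genes the fit recovered 100% of 50 genes changed by 2 log2 units each way, and of those changed by 1 log2 unit 82% of 50 raised and 68% of 50 lowered. The labels do not say whether equal replicate numbers mark paired samples, and the main fit did not pair them. Deviations of control 1 and phorone 1 from their group means correlated at -0.02 across genes. With 2 arrays per group this cannot settle the question.

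Named were the called members with the largest changes, members above background in 1 group only, isoform sets and subunits with redox or catalytic sites. Up to 3 called genes each way were named per list. Other members and the regulators Tfam, Yy1, Nrf1, Esrra and Gabpa were named after their values were seen. Members, lists and markers were chosen with earlier results of these data known. Alternatives covered scaling, background correction, the filter on dim probes, the probes of a gene, the replicate block and leaving out each array. Values of 1 member are not reported here; it remains in the counts.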

Additional observations from a re-analysis of the deposited data

How the results depend on the processing

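Scaling to spike-in probes gave 2 members called higher (main value 5) and 2 lower (7), with 2 and 1 in complex I (4 and 4), 0 higher in complex III (1), 1 lower in complex IV (2) and 0 lower in complex V (1). The member median was 0.54 (0.10) and the medians of complexes I to V were 0.54, 0.56, 0.81, 0.48 and 0.53. Over all genes 1208 were lower (3625), and on the pathway lists 56 higher (101) and 3 lower (16). In that setting limma gave every gene the same SE of 0.446, so the call of Ndufs1 there does not use its own spread; Ndufa7 turned to 0.026 (-0.41).

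Quantile normalisation gave 2 members higher, 2 in complex I and 0 in complex III, a member median of -0.00037, and medians of 0.0025, 0.26 and -0.044 in complexes I, III and IV. Without a filter on dim probes, where 29314 genes were tested, 1 member was higher and 4 lower, with 1 and 2 in complex I, 0 higher in complex III and 0 lower in complex V; 2305 genes were higher (4132), the lists had 45 and 8, and the adipocyte marker median turned to 0.19 (-0.65). Requiring signal above background on all 4 arrays gave 8 members higher, 4 of them in complex III. Normexp background correction gave 9 higher, with 2 in complex III, 1 in complex IV and 1 in complex V. The complex III median (0.38) was 0.34 with normexp and 0.34 with median scaling, and the complex II median (0.13) was 0.047 where all probes of a gene were averaged. Counting true subunits only, with Ndufa4 and Ndufa4l2 in complex IV, gave 1 higher there. The lower call of Ndufa4l2 then also counted for complex IV and not for complex I. Beyond what the reduced or enlarged set of tested genes shows, the cause was not tested.

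With the replicate block, 1 member was higher and 6 lower, with 1 higher in complex I and 0 in complex III. Whether the replicate numbers mark pairs is not stated in the labels.

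Leaving out each array in turn gave 1 to 7 members higher, 4 to 8 lower and a median of 0.050 to 0.16. In complex I, 1 to 3 were higher and 2 to 4 lower (median 0.065 to 0.17). The complex II median was 0.053 to 0.20 and that of complex III 0.33 to 0.41, with 0 to 1 higher. Complex IV had 0 to 1 higher (median -0.025 to 0.094, which turns its sign), and complex V 0 to 2 higher and 0 to 1 lower (median 0.0025 to 0.17). All genes had 2086 to 3961 higher, the lowest without phorone 2 and 2516 without phorone 1, and the lists 38 to 85 higher and 6 to 18 lower. A left-out array leaves a lone sample, assumed to vary like the other group.

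Over 14 settings, the 5 members called higher kept their call in 39 of 70 values and the 7 called lower in 78 of 97; the 70 uncalled stayed so in 957 of 979. The deposited value table kept all 12 calls.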
